A study of Homo sapiens with 16 samples.

Results

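This experiment asked how tunicamycin (Tm) changed ribosome occupancy when ISRIB was present on both sides of the comparison. Ribo-Seq counts of HEK293T cells treated with Tm + ISRIB were set against those of cells treated with ISRIB alone, with 2 replicates (a and b) in each group. A transcript entered when it had an annotated coding sequence and at least 10 counts in 2 or more of the 4 libraries, which kept 12054 of 21520 transcripts. Of these, 1974 carry a gene symbol in the sources used here, mostly genes of chromosomes 1 to 3. The others are known only by a UCSC identifier.

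All libraries come from HEK293T, an established line derived from human embryonic kidney and expressing the SV40 T antigen. Tm was given at 1 µg/ml and ISRIB at 200 nM, each for 1 hr. Cells treated with 1 µg/ml Tm alone for 1 hr and untreated cells, also 2 Ribo-Seq libraries each, served to test whether the Tm effect differed without ISRIB. The study calls the replicates biological, but not how the cultures were kept apart, so the p-values measure the spread between these libraries.

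Tm blocks N-linked glycosylation, the attachment of sugar chains to proteins as they enter the endoplasmic reticulum (ER). Misfolded proteins in the ER activate the kinase PERK, which phosphorylates the initiation factor eIF2. Phosphorylated eIF2 inhibits eIF2B, its exchange factor, and slows initiation on most mRNAs, while a few mRNAs with upstream open reading frames (uORFs) are translated better. This is the integrated stress response (ISR). ISRIB is a small molecule that keeps translation insensitive to phosphorylated eIF2 by acting on eIF2B. Ribosome-protected fragments (RPFs) report where ribosomes sit on an mRNA, and all changes below are relative to the other transcripts of a library.

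The uORF frames of 4 mRNAs and the start sites of 3 longer frames are shown because these mRNAs rose in Tm without ISRIB and are followed through every library below. They were read from GENCODE v29 transcripts (GRCh38) matched by symbol and coding length, 5′ to 3′, with the start and stop codons of a whole frame, or the start codon of a start site, in capitals.
ATF4 (chr22:39520564-39522685, plus strand), 3 sense codons, starting 196 nt before the coding sequence: ATGgcgtatTAG
ATF5 (chr19:49928702-49933298, plus strand), 3 sense codons, starting 246 nt before: ATGgctctgTAG
SAT1 (chrX:23783173-23786226, plus strand), 4 sense codons, starting 117 nt before: ATGgtgccagccTGA
PTP4A1 (chr6:63576488-63581462, plus strand), 2 sense codons, starting 237 nt before: ATGgggTAA
DDIT3 (chr12:57516809-57520511, minus strand), start of a frame of 34 sense codons: cgtatcATGttaa
PPP1R15A (chr19:48872392-48876057, plus strand), start of a frame of 26 sense codons: ggtgagATGaacg
UCP2 (chr11:73974667-73983307, minus strand), start of a frame of 36 sense codons: catagtATGacca
Both ATF4 and ATF5 carry, downstream of the short frame, a second frame of 59 sense codons that runs into the coding sequence. Its presence is the textbook arrangement by which ribosomes miss the coding sequence unless eIF2 is limiting. The frames shown for DDIT3, PPP1R15A and UCP2 end before the coding sequence. The UCP2 transcript has 5 upstream AUGs in 843 nt, the DDIT3 transcript 5 in 372 nt and the PPP1R15A transcript 2 in 269 nt.

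The coding transcripts hold 6120862 (a) and 6797916 (b) counts in Tm + ISRIB and 4716419 and 6237775 in ISRIB, and between 3141634 and 11998181 in the Tm and untreated libraries. The common biological coefficient of variation of the Ribo-Seq libraries was 5.7%. The smallest p an exact permutation of 2 libraries against 2 allows is 0.33, so every test below draws on the spread estimated across transcripts by edgeR.

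RPFs of 165 of 12054 transcripts (1.37%) changed in Tm + ISRIB against ISRIB at an FDR under 0.1. Of these, 89 rose and 76 fell. Only 35 changed by more than 2-fold, 31 of them upward. Among the transcripts with a symbol 33 changed (1.67%), 23 up (1.17%) and 10 down (0.507%). In the same fit, Tm without ISRIB changed 1581 transcripts (13.1%), 750 up and 831 down. The median absolute log2-fold change was 0.12 with ISRIB against 0.17 without, but such a median also grows with noise. The Tm libraries were the shallowest, with 4367220 and 3141634 counts. The squared difference of the untreated replicates was 5.22 times that of counting noise, against 2.15 in Tm + ISRIB, 1.61 in ISRIB and 1.76 in Tm. The part of depth and replicate spread in these medians was not tested. When the libraries were scaled to their totals alone, 68.2% of the calls were rises instead of 53.9%. The number of calls depends on single libraries, and within Tm + ISRIB on replicate a. Without Tm + ISRIB replicate a or without ISRIB replicate a the same test called 0 transcripts, and without ISRIB replicate b it called 1. Without Tm + ISRIB replicate b it called 175. The median log2-fold change of the 89 risers, 0.62, ranged from 0.54 to 0.79 over these 4 fits, and that of the 76 fallers, -0.41, from -0.48 to -0.34. Of the risers, 77 stood higher in Tm + ISRIB replicate a than in replicate b. Among the fallers, 60 of 76 stood lower in replicate a than in b. Whether this library differs from the other in more than its treatment was not tested.

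The transcripts that rose were long and those that fell were short. The median counted length was 992 codons for the risers and 216 for the fallers, against 455 for all tested. Their median count per Tm + ISRIB library was 210 and 1016, against 170 for all tested.

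ATF4, the transcription factor at the centre of the ISR, had 51.1 and 63 CPM in Tm + ISRIB and 43.1 and 41.3 CPM in ISRIB (57.1 ± 8.43 and 42.2 ± 1.28, SD, n = 2). CPM are counts scaled to a common library size with TMM factors. Its log2-fold change of 0.44 ± 0.13 (SE) did not pass the test (FDR 0.108 in edgeR's quasi-likelihood test), although both Tm + ISRIB libraries were above both ISRIB libraries. It passed in DESeq2, with the 4 libraries alone, library totals, no count filter, the replicate letter as a block or either untreated library left out, at 0.44 to 0.47. In Tm alone ATF4 stood at 434 and 441 CPM, against 77.8 and 58.6 in untreated cells, so both Tm + ISRIB libraries were far below both Tm libraries and near the untreated level. The Tm effect on ATF4 differed by -2.25 ± 0.16 on the log2 scale between cells with and without ISRIB (FDR 2.86e-10).

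ATF5, a related transcription factor, had 12 and 16 counts in Tm + ISRIB and 10 and 10 in ISRIB (1.96, 2.37, 2.17 and 1.65 CPM), and the groups overlapped. In Tm it had 9.96 and 10.3 CPM against 1.43 and 1.28 in untreated cells, and the test of the difference gave -2.69 ± 0.56 (FDR 0.0057). DDIT3, which encodes the stress-induced factor CHOP, had 3.26 and 1.92 CPM in Tm + ISRIB and 3.25 and 2.96 in ISRIB, with a difference of -2.22 ± 0.49 (FDR 0.00829). PPP1R15A encodes GADD34, the regulatory subunit of the phosphatase that removes the phosphate from eIF2. It had 5.06 and 6.8 CPM in Tm + ISRIB and 7.16 and 6.09 in ISRIB, with a difference of -1.57 ± 0.36 (FDR 0.0124). None of these 3 mRNAs separated the 2 groups, and each had stood above untreated cells in both Tm libraries.

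UCP2, an inner mitochondrial membrane carrier, was the 1 of the 11 tested uORF mRNAs whose RPFs rose at an FDR under 0.1 in the presence of ISRIB. Its counts were 96 and 78 in Tm + ISRIB and 31 and 43 in ISRIB, or 15.7 and 11.5 CPM against 6.72 and 7.08. Both Tm + ISRIB libraries stood above both ISRIB libraries, by 1.95-fold in the fit (log2 0.97 ± 0.22, FDR 0.0253). In Tm alone it stood at 28.8 and 30.5 CPM against 11.3 and 9.19 in untreated cells, a 2.91-fold change. The difference of the Tm effect on UCP2 was -0.58 ± 0.28 and did not pass the test (FDR 0.276), so the smaller change with ISRIB was not shown to differ from the change without it. The UCP2 mRNA had 5.82 and 7.7 CPM in Tm + ISRIB and 6.27 and 15.2 in ISRIB, so the groups overlapped. Its log2-fold change of -0.60 ± 0.32 leans on ISRIB replicate b and did not pass the test (FDR 0.365). The translational efficiency (TE, the RPF change minus the mRNA change) of UCP2 changed by 1.56 ± 0.42. This value contains the mRNA change and did not pass the test (FDR 0.105). UCP2 kept its call under every other setting that gave it an adjusted p, apart from the libraries left out above.

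**Figure D1:**
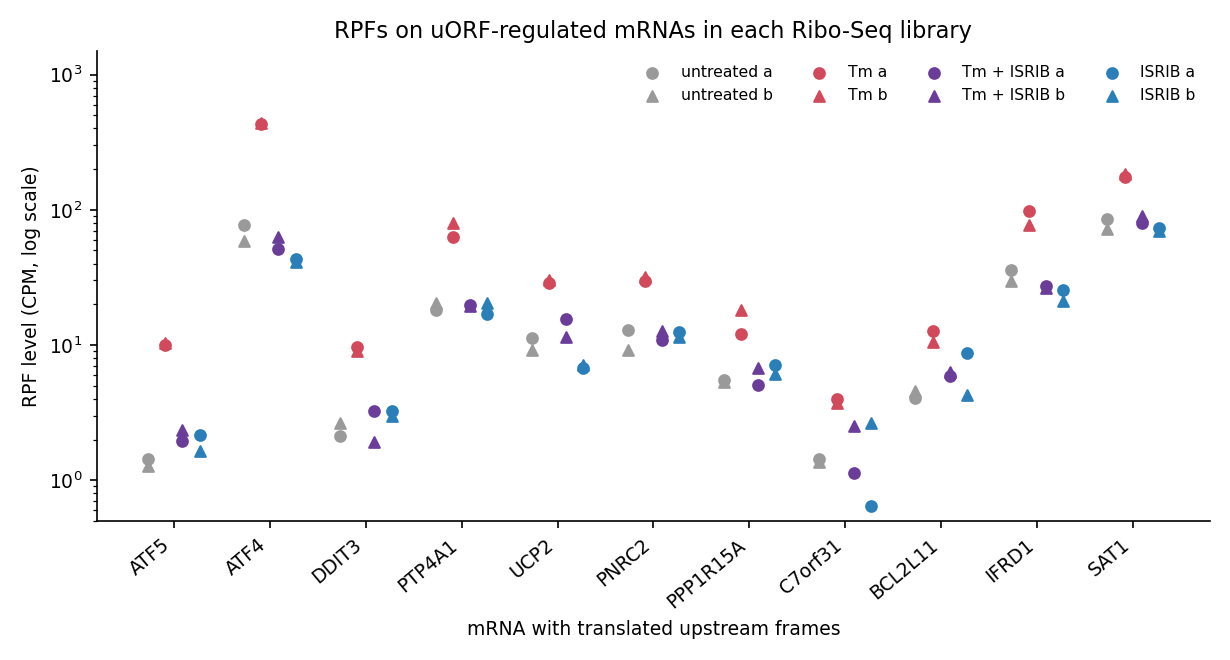
RPF level in CPM on a log scale for the 11 tested mRNAs with translated upstream frames, with 1 point for each of the 8 Ribo-Seq libraries (circles replicate a, triangles replicate b, colours the 4 treatments). The Tm points stand above all others for each mRNA, while the Tm + ISRIB points lie near those of ISRIB except for UCP2, with 15.7 and 11.5 CPM against 6.72 and 7.08.

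The other uORF mRNAs had log2-fold changes of RPFs between -0.03 and 0.24 in Tm + ISRIB. SAT1, which acetylates polyamines, had 80.2 and 89.5 CPM against 73.7 and 70.2 in ISRIB, without overlap but short of the threshold (FDR 0.338). IFRD1, a transcriptional coregulator, had 27.4 and 26.6 CPM against 25.6 and 21.1 (FDR 0.642). PTP4A1, a phosphatase, had 19.9 and 19.5 CPM against 16.9 and 20.6, and PNRC2, a decapping cofactor, 10.8 and 12.6 against 12.4 and 11.5. BCL2L11, which encodes the apoptosis inducer BIM, had 5.88 and 6.36 CPM against 8.67 and 4.28, and C7orf31 had 1.14 and 2.51 against 0.65 and 2.64. In these last 4 the groups overlapped. SLC35A4 has 12 and 7 counts in Tm + ISRIB and 4 and 9 in ISRIB, too few to enter the test.

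Over the 11 tested uORF mRNAs, 1 rose and 0 fell (0.738% and 0.63% of all transcripts). Their median log2-fold change was 0.08, beside -0.00 for all transcripts tested. Without ISRIB all 11 rose (6.22% of all transcripts and 7.9% of those with a symbol rose), with a median of 1.50. The test of the difference was lower for 9 of the 11, where 3.05% of all transcripts were lower. Of the 12 mRNAs listed, 7 were taken by the study from changes in the Tm and untreated libraries, so the size in Tm and of the difference is not independent of that choice.

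The largest rises belonged to transcripts of multicopy gene families on few counts. NPIP (uc021tdy.1), a member of the nuclear pore interacting protein family duplicated on chromosome 16, had 35 and 15 counts in Tm + ISRIB and 1 and 2 in ISRIB. Summed and scaled to the library totals, this is a ratio of 13.8, with a 95% exact (Clopper-Pearson) interval of 4.47 to 69.3 that covers counting error only. LOC100288332 had 36 and 15 against 1 and 2 counts, a ratio of 14.1 (4.56 to 70.6). A second NPIP transcript (uc002dcy.4) had 39 and 14 against 1 and 3 counts, a ratio of 11 (4.05 to 41.8). These transcripts share sequence and the authors' counting may have assigned the same reads to several of them, so they do not count as separate events.

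The pair of AK310228 transcripts had 68 and 15 (uc002dey.2) and 72 and 15 (uc010bvu.2) counts against 3 and 4, AK302511 46 and 24 against 5 and 3, and FLJ00285 91 and 28 against 8 and 10. FLJ00322 had 71 and 23 counts against 10 and 6, and like FLJ00285 is not in the list of multicopy families counted below. In all of these, replicate a of Tm + ISRIB was the high library. ANKRD36 (ankyrin repeats, in a duplicated region of chromosome 2) had 109 and 80 counts against 39 and 26, and NBPF14, of the neuroblastoma breakpoint family, 170 and 105 against 67 and 63. Of the 43 tested transcripts of multicopy families, 8 rose (0.738% of all transcripts rose) and 1 fell, with a median of 0.15. Of the 8, 6 reached 10 counts in the Tm + ISRIB libraries only, so they passed the count filter through the group in which they are high, and their count is no support for a rise of the list. Of the 36 with 10 counts in an ISRIB library, 2 rose (ANKRD36 and NBPF14), or 5.56%, beside 0.604% of the 11928 such transcripts in all. Without Tm + ISRIB replicate a the log2-fold change of FLJ00285 went from 2.46 to 1.29, that of FLJ00322 from 2.28 to 1.17, that of NBPF14 from 0.81 to 0.34, and those of AK310228 from 3.28 and 3.35 to 1.73. That of ANKRD36 went from 1.26 to 0.80 without ISRIB replicate b.

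PKD1 encodes polycystin-1, a very large membrane protein whose gene (chr16:2088710-2135898, minus strand) has several near-identical pseudogenes nearby. It had 465 and 234 counts in Tm + ISRIB and 87 and 112 in ISRIB, or 75.9 and 34.6 CPM against 18.9 and 18.4, a 2.94-fold change (log2 1.56 ± 0.30, FDR 0.0148). STARD9, a large kinesin-like protein, had 87 and 50 counts against 8 and 15 (log2 2.31 ± 0.45, FDR 0.0159). PCNXL2, a membrane protein of the pecanex family, had 48 and 26 counts against 9 and 11 (log2 1.61 ± 0.40, FDR 0.0538). Without Tm + ISRIB replicate a the log2-fold change of PKD1 was 0.89 and that of PCNXL2 1.03.

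The study listed 9 transcripts as changed in Tm + ISRIB, a list built on the Tm + ISRIB and untreated libraries and so not independent of this comparison. Of these, 8 passed the count filter, 5 of them through the Tm + ISRIB libraries only, and their log2-fold changes, 1.26 to 3.74, are a description. In Tm without ISRIB 0 of the 8 were called. The test of the difference was passed by 1 of the 8, AK302511, at 2.67 (FDR 0.0564).

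**Figure D2:**
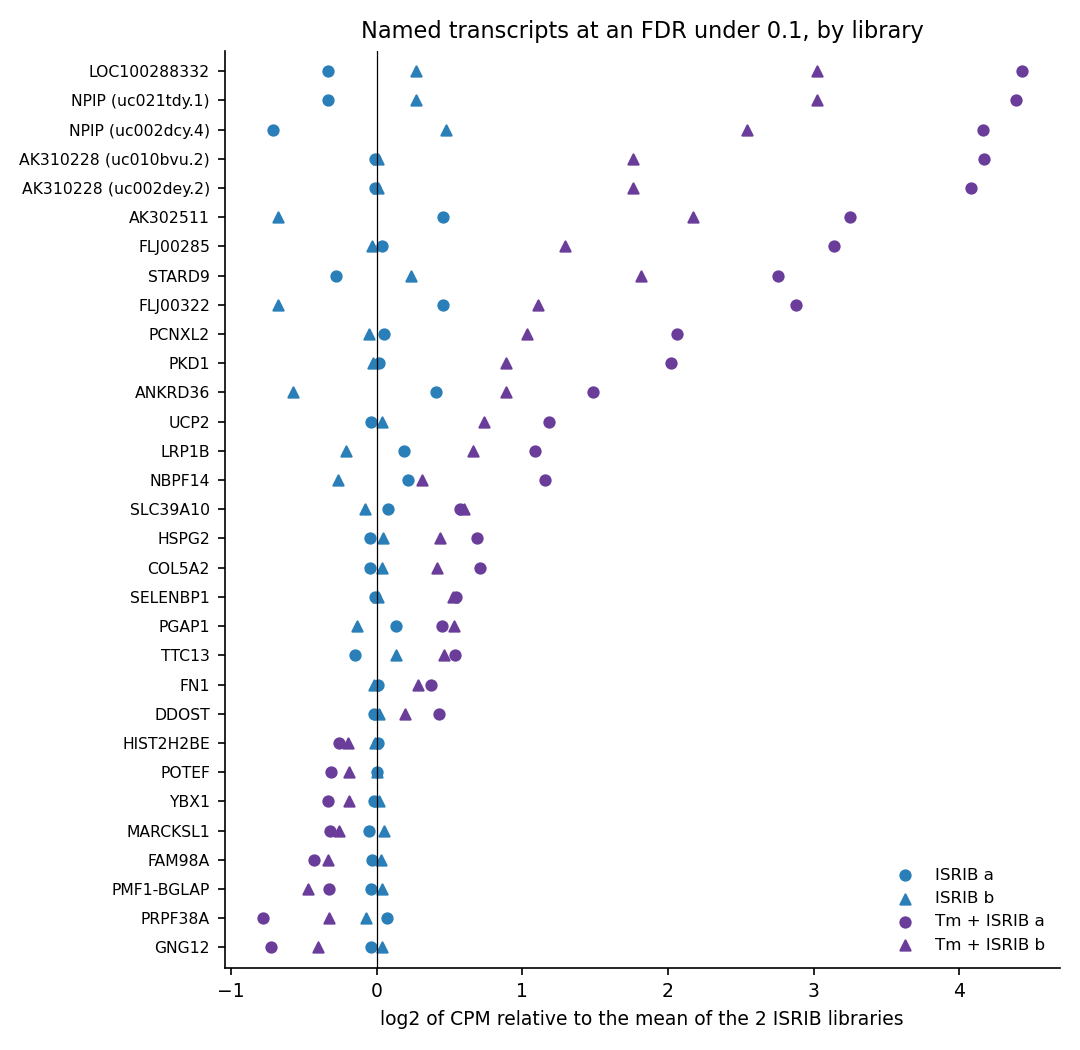
Log2 of the CPM in each of the 4 libraries relative to the mean of the 2 ISRIB libraries, for the 31 named transcripts at an FDR under 0.1 outside the ribosomal protein list (circles replicate a, triangles replicate b). The 23 that rose lie to the right in both Tm + ISRIB libraries, with replicate a farther out for the multicopy transcripts, and the fallers lie within 1 log2 unit of ISRIB.

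Below these, the risers included mRNAs of secreted and membrane proteins, most of them with higher counts than the multicopy transcripts. Tm + ISRIB replicate a again stood above replicate b for FN1, HSPG2, COL5A2, LRP1B and DDOST, but below it for SLC39A10 and PGAP1. Risers with less than a 2-fold change were named after their values were seen. FN1 encodes fibronectin, a glycoprotein of the extracellular matrix (chr2:215360454-215436172, minus strand). It had 243 and 229 CPM in Tm + ISRIB and 189 and 186 in ISRIB, both above both, by 1.26-fold (log2 0.33 ± 0.09, FDR 0.0857). HSPG2 encodes perlecan, a basement membrane proteoglycan (chr1:21822245-21937297, minus strand). It had 58.9 and 49.3 CPM against 35.3 and 37.7, a 1.47-fold change (FDR 0.031).

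COL5A2, a fibrillar collagen chain, had 34.8 and 28.4 CPM against 20.6 and 21.9, a 1.48-fold change (FDR 0.0793). LRP1B, a giant receptor of the LDL receptor family with 47 N-X-S/T sequons in its coding sequence, had 17.8 and 13.3 CPM against 9.54 and 7.25 (1.87-fold, FDR 0.0533). LRP1B had risen about as much without ISRIB (1.81-fold, FDR 0.0184), and its difference was 0.05 (FDR 0.956). The 4 proteins work outside the cell or at its surface and enter the ER during synthesis.

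SLC39A10, a zinc importer of the plasma membrane, had 115 and 117 CPM against 81.5 and 73.1, a 1.51-fold change (FDR 0.0383). PGAP1, an ER enzyme that remodels GPI anchors, had 43.6 and 46.2 CPM against 34.9 and 29 (1.42-fold, FDR 0.0609), and its TE rose by 0.61 on the log2 scale (FDR 0.089). DDOST, a subunit of the oligosaccharyltransferase that carries out N-glycosylation, had 480 and 409 CPM against 353 and 361 (1.24-fold, FDR 0.0857), with a log2-fold change of 0.32 that was 0.19 without Tm + ISRIB replicate a. TTC13, a protein with tetratricopeptide repeats, had 47.5 and 45.1 CPM against 29.5 and 35.9 (1.4-fold, FDR 0.058). SELENBP1, a selenium-binding protein of the cytosol, had 32.5 and 32.1 CPM against 22.1 and 22.4 (1.45-fold, FDR 0.0967). In each of these the 2 groups did not overlap.

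Several of these mRNAs differed between the settings with and without ISRIB. DDOST fell in Tm alone, with 316 and 247 CPM against 388 and 372 in untreated cells (0.746-fold, FDR 0.00219), and the difference was 0.74 ± 0.12 (FDR 0.000531). FN1 had 168 and 127 CPM in Tm against 173 and 190 in untreated cells (FDR 0.0511), with a difference of 0.62 ± 0.13 (FDR 0.0061). SLC39A10 had 76.8 and 69.7 CPM in Tm against 117 and 69.6 in untreated cells, a difference of 0.92 ± 0.20 (FDR 0.00893) that was 0.51 without untreated replicate a (FDR 0.0333). The difference was called for HSPG2 at 0.64 (FDR 0.0513), PGAP1 at 0.67 (FDR 0.0426), COL5A2 at 0.66 (FDR 0.0791) and SELENBP1 at 0.65 (FDR 0.0802).

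A list of 69 secreted and cell-surface proteins, drawn up after these values were seen, describes how far the pattern extends. Of its 67 tested transcripts, 58 had a log2-fold change above 0 and 40 had both Tm + ISRIB libraries above both ISRIB libraries, which held for 21.2% of all transcripts, while 2 had both below (22.4% of all). The median was 0.18, or 1.13-fold, and it ranged from 0.13 to 0.23 when each of the 4 libraries was left out. The list had a median length of 918 codons, and all transcripts of 801 to 1600 codons had a median of 0.04. At an FDR under 0.1, 4 of the list rose (FN1, HSPG2, COL5A2 and LRP1B) and 0 fell, beside 0.738% and 0.63% of all transcripts. In Tm without ISRIB the median of the list was -0.14, with 1 riser and 10 fallers (6.89% of all transcripts fell). The difference was called for 11 members, all higher with ISRIB (3.59% of all transcripts were higher). Examples are NID1, a basement membrane linker, at 0.57 (FDR 0.0167), and the complement regulator CD55 at 0.64 (FDR 0.029). The list was chosen with the values in view and is a description, not a test.

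LAMC1, a laminin chain, had 325 and 301 CPM in Tm + ISRIB against 249 and 273 in ISRIB (FDR 0.236). PTPRU, a receptor phosphatase, had 29.7 and 26 CPM against 17.1 and 21.2 (FDR 0.115). Both mRNAs stood higher in each Tm + ISRIB library than in either ISRIB library, without passing the test. IGFBP2, a secreted binding protein, went the other way, with 84.1 and 85.2 CPM against 92.8 and 105 (FDR 0.357).

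The named mRNAs that fell did so by less than 2-fold, all 10 of them. GNG12, a G protein gamma subunit (chr1:67701466-67833467, minus strand), had 28.7 and 35.8 CPM in Tm + ISRIB and 46.2 and 48.6 in ISRIB, the largest named fall (log2 -0.55 ± 0.13, FDR 0.031). PRPF38A, a component of the spliceosome, had 24 and 33 CPM against 43.4 and 39.2 (log2 -0.52 ± 0.14, FDR 0.0739). FAM98A, found in the tRNA ligase complex, had 69.2 and 74.1 CPM against 91.3 and 95.5 (log2 -0.38 ± 0.10, FDR 0.0772). For these 3 the difference from the Tm effect without ISRIB was also called, at -0.61 (FDR 0.0517), -0.61 (FDR 0.0693) and -0.56 (FDR 0.0257). Without Tm + ISRIB replicate a the change of PRPF38A was -0.32 and its difference -0.41 (FDR 0.372).

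YBX1, an abundant RNA-binding protein of mRNA particles, had 733 and 811 CPM against 914 and 934 (log2 -0.26 ± 0.07, FDR 0.0721). MARCKSL1, an actin regulator at the membrane, had 176 and 184 CPM against 212 and 228 (FDR 0.0859). The readthrough transcript PMF1-BGLAP had 48.2 and 43.8 CPM against 59 and 62.3 (FDR 0.085), and POTEF, which ends in an actin-like sequence and can share reads with the actin genes, 334 and 364 against 416 and 415 (FDR 0.0875). HIST2H2BE, a histone H2B gene, had 923 and 965 CPM against 1112 and 1100 (log2 -0.23 ± 0.06, FDR 0.0857) and differed by -0.42 (FDR 0.00614) from its change without ISRIB. All of these had both Tm + ISRIB libraries below both ISRIB libraries.

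Among replication-dependent histones, 1 fell. Of 13 tested transcripts of 10 genes, 12 had a log2-fold change below 0 and both Tm + ISRIB libraries below both ISRIB libraries (22.4% of all transcripts), and HIST2H2BE alone was called (0.63% of all transcripts fell). The median was -0.19, and -0.20 to -0.16 without 1 library at a time. Histone genes are near-identical copies, so the transcripts share reads. In Tm without ISRIB their median was -0.03 and 4 were lower by the test of the difference (3.05% of all).

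Among 38 transcripts of splicing factors and nuclear RNA-binding proteins, 2 fell (PRPF38A and YBX1), 0 rose and 27 were below 0, with a median of -0.08. The same list had a median of 0.11 in Tm alone, with 7 risers and 1 faller (6.22% and 6.89% of all transcripts), and 6 were lower by the test of the difference (3.05% of all). With ISRIB 0.63% of all transcripts fell. Ribosome biogenesis factors (29 tested) had a median of -0.03 with ISRIB and 0.10 without, and 0 were called with ISRIB. Their 2 smallest p-values belonged to EBNA1BP2 (log2 -0.16, FDR 0.479) and RPF1 (log2 -0.18, FDR 0.409).

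Ribosomal proteins and elongation factors, whose mRNAs carry a 5′ terminal oligopyrimidine tract and answer to mTOR signalling, behaved differently with and without ISRIB. Without ISRIB all 15 tested fell (6.89% of all transcripts fell), with a median of -0.46 or 0.725-fold. With ISRIB the median was -0.08 or 0.949-fold, 2 fell (0.63% of all) and 13 were below 0. Both Tm + ISRIB libraries were below both ISRIB libraries for 8 (22.4% of all). The list had a median length of 175 codons, and all transcripts of 101 to 200 codons had medians of -0.06 with ISRIB and -0.03 without. The test of the difference was higher for 9 of the 15 (3.59% of all) and lower for 0. In the mRNA libraries the median of the same 15 was 0.24, and their TE had a median of -0.29, with 2 called down (0.495% of all). With replicate b as the only mRNA-Seq ISRIB library these medians were 0.37 and -0.45, and those with replicate a as the only one are not given here. All transcripts of 101 to 200 codons had medians of 0.12 for mRNA and -0.16 for TE.

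Of 30 tested transcripts of ER stress sensors, chaperones and degradation factors, 0 rose or fell with ISRIB, with a median of 0.04. EMC1, a subunit of the ER membrane insertase, had 219 and 210 CPM against 174 and 180 (log2 0.28, FDR 0.129). UGGT1, the folding sensor that reglucosylates misfolded glycoproteins, had 112 and 111 CPM against 91.7 and 90.9 (log2 0.29, FDR 0.181). Neither was called, although their groups did not overlap. In Tm without ISRIB this list had a median of -0.09 with 3 fallers (6.89% of all transcripts), and the difference was higher for 3 members (3.59% of all), EMC1 among them at 0.36 (FDR 0.0755).

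N-glycosylation genes (27 tested) had 1 riser, DDOST (0.738% of all transcripts rose), and 0 fallers, with a median of 0.03. ER targeting and early traffic genes (28 tested) had 0 called and a median of -0.00, with MIA3, which exports collagen from the ER, at 0.27 (FDR 0.207) and NBAS, a tethering factor, at 0.23 (FDR 0.396). The 12 eIF2 kinases and initiation factors had 0 called and a median of 0.02, where EIF2B3, a subunit of the exchange factor on which ISRIB acts, was at 0.14 (FDR 0.58) and the mitochondrial factor MTIF2 at 0.19 (FDR 0.589).

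Immediate early and other short-lived response genes (30 tested) had 0 called and a median of -0.01. The growth factor response gene IER5 had 11.1 and 14.9 CPM against 17.8 and 21.7 (log2 -0.61, FDR 0.163), and JUN, a subunit of the AP-1 transcription factor, 56.6 and 51.9 against 60.9 and 73.6 (log2 -0.32, FDR 0.207). Amino acid and one-carbon genes (27 tested), many of them ATF4 targets, had 0 called and a median of -0.03. Their smallest p-values were those of MTHFD2, a mitochondrial folate enzyme (log2 0.15, FDR 0.495), and the neutral amino acid transporter SLC1A4 (log2 -0.29, FDR 0.495). MTHFD2 had 122 and 116 CPM in Tm against 151 and 142 in untreated cells and differed by 0.45 (FDR 0.0276).

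The remaining lists had 0 calls with ISRIB. Medians within 0.03 of 0 can change sign with the scaling of the libraries, as those of the ER targeting and immediate early lists did. Aminoacyl-tRNA synthetases (11 tested) had a median of 0.02, with EPRS at 0.20 (FDR 0.209) and IARS2 at 0.12 (FDR 0.671). Mitochondrial ribosomal proteins (18 tested) had a median of -0.09 with 14 below 0, led by MRPL9 (log2 -0.23, FDR 0.34) and MRPS21 (log2 -0.23, FDR 0.392). Respiratory chain subunits (14 tested) had a median of -0.04, with UQCRH, a hinge protein of complex III, at -0.28 (FDR 0.112) and the ATP synthase inhibitor ATPIF1 at -0.19 (FDR 0.332). Proteasome and chaperonin subunits (12 tested) had a median of -0.01, with the mitochondrial chaperonin HSPD1 at 0.07 (FDR 0.718) and the proteasome activator PSME4 at 0.11 (FDR 0.723). DNA replication, repair and mitosis genes (40 tested) had a median of 0.01 with ISRIB, with the mitotic activator CDC20 at -0.14 (FDR 0.488) and the ribonucleotide reductase subunit RRM2 at -0.15 (FDR 0.43). Without ISRIB the DNA replication list had 11 risers (6.22% of all transcripts) and a median of 0.16, and 3 members were lower by the test of the difference (3.05% of all).

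**Figure D3:**
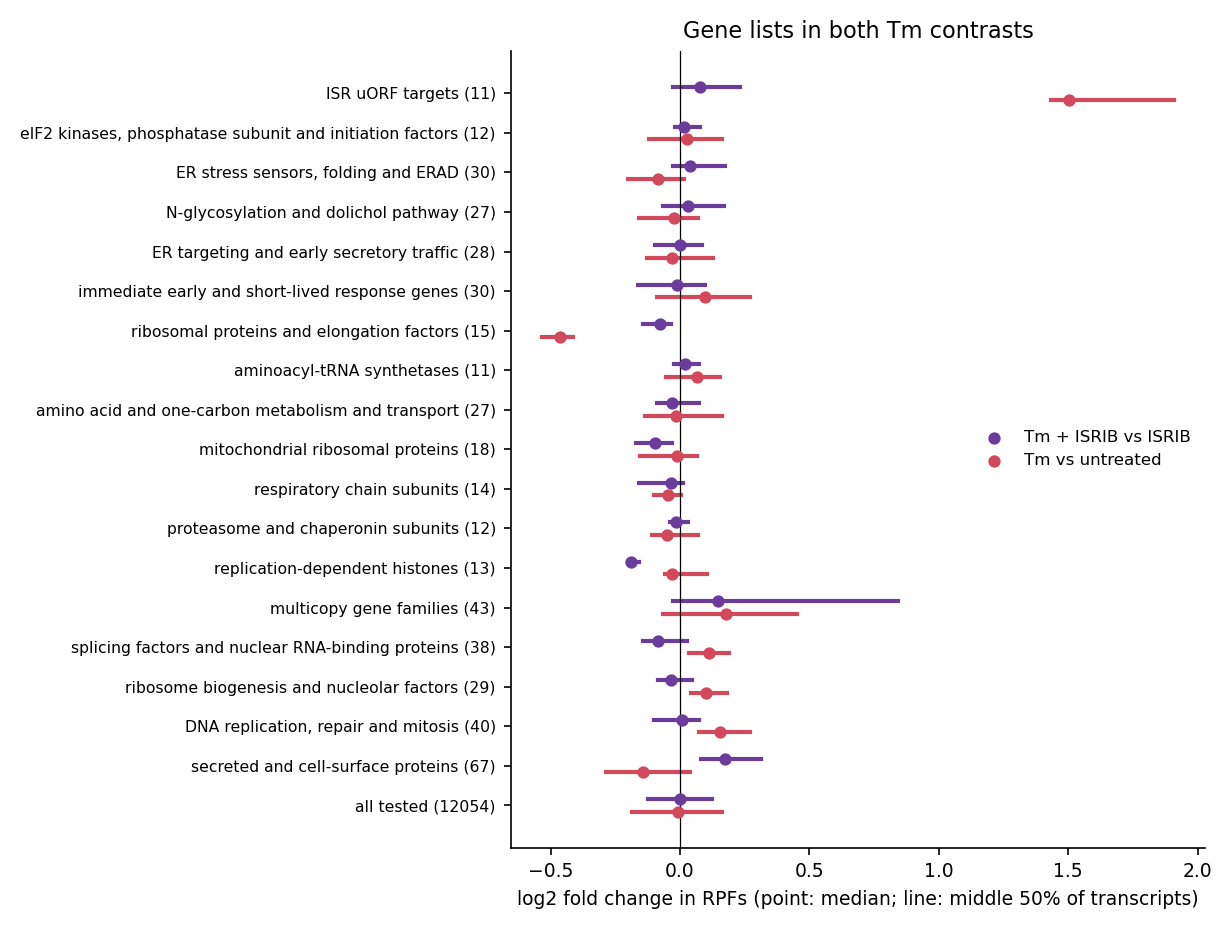
Median (point) and interquartile range (line) of the log2-fold change in RPFs for each gene list, with the number of tested transcripts in brackets, in Tm + ISRIB against ISRIB (purple) and in Tm against untreated cells (red). With ISRIB the uORF targets move from a median of 1.50 to 0.08 and the ribosomal protein list from -0.46 to -0.08, while the secreted and cell-surface list lies at 0.18 against -0.14.

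Tm alone changed 65 transcripts (0.539%) by more than 2-fold. Of the 40 that were higher, 1 (UCP2) rose in Tm + ISRIB (0.738% of all transcripts rose) and 0 fell, with a median of 0.14 where it had been 1.28. Of the 25 that were lower, 0 were called (1.37% of all transcripts were), with a median of 0.04 against -1.13. The 2 contrasts share no library, but the 65 were chosen for their size in Tm. Among all transcripts called in both contrasts, 41 in number, 29 had the same sign, 12 up and 17 down.

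Of the mRNAs that the study listed for changes in TE after Tm, 38 of the tested ones stood higher in Tm than in untreated cells. In the presence of ISRIB 8 of them rose (0.738% of all transcripts rose) and 0 fell, and the median was 0.23 against 1.29. The 8 are UCP2, the multicopy AK310228 and NPIP pairs and LOC100288332, and FLJ00285 and FLJ00322. The AK310228 and NPIP pairs and LOC100288332 reached 10 counts in the Tm + ISRIB libraries only. They passed the count filter through the group in which they are high, so the count of 8 is no support for a rise of these mRNAs. The 15 that stood lower in Tm had a median of 0.04 with ISRIB against -1.11 without, and 0 were called. KIAA1841 had 15 and 15.1 CPM against 12.1 and 13.2 (FDR 0.669), and EPB41L4B, a cytoskeletal linker, 6.53 and 7.69 against 8.89 and 8.4 (FDR 0.752).

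The Tm effect itself differed with and without ISRIB for 801 transcripts (6.65%), 433 higher and 368 lower with ISRIB, and by more than 2-fold for 86 (0.713%). Among transcripts with a symbol 149 differed (7.55%), 71 higher (3.6%) and 78 lower (3.95%). This count fell to 232 without Tm + ISRIB replicate a, 248 without ISRIB replicate a, 319 without ISRIB replicate b and 284 without Tm replicate b, and was 1229 without untreated replicate b. The largest named differences in the lower direction, among transcripts with separate groups in both contrasts, were those of ATF4, ZNF432, CPS1, IFRD1 and SLC25A44. ZNF432, a zinc finger protein, had 5.54 and 7.78 CPM in Tm against 3.33 and 2.98 untreated, and 3.26 and 3.4 in Tm + ISRIB against 4.99 and 6.42 in ISRIB, a difference of -1.84 (FDR 0.0161). CPS1, the first enzyme of the urea cycle, had 23.3 and 19.3 against 10.6 and 10.7 CPM, and 14.2 and 11.7 against 14.3 and 15.5 with ISRIB (difference -1.22, FDR 0.00469). IFRD1 differed by -1.21 (FDR 0.000391) and SLC25A44, a mitochondrial carrier of branched-chain amino acids, by -1.09 (FDR 0.00991).

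In the higher direction they were PAQR5 (1.66, FDR 0.0875), MAPK8IP1 (1.42, FDR 0.0828), KIAA1841 (1.30, FDR 0.00694), POMGNT1 and VANGL2. POMGNT1, a Golgi enzyme of O-mannosyl glycosylation, had 13.7 and 11.2 CPM in Tm against 24.2 and 24.9 untreated, and 27.8 and 25.1 in Tm + ISRIB against 23.6 and 23.1 in ISRIB. Its difference was 1.14 (FDR 0.00238). VANGL2, a planar cell polarity protein, had 5.09 and 5.6 CPM in Tm against 13.3 and 12.6 untreated, and 11.1 and 12.1 against 12.6 and 13.5 with ISRIB (difference 1.11, FDR 0.0338). In both, the 2 Tm libraries were the lowest of the 8.

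**Figure D4:**
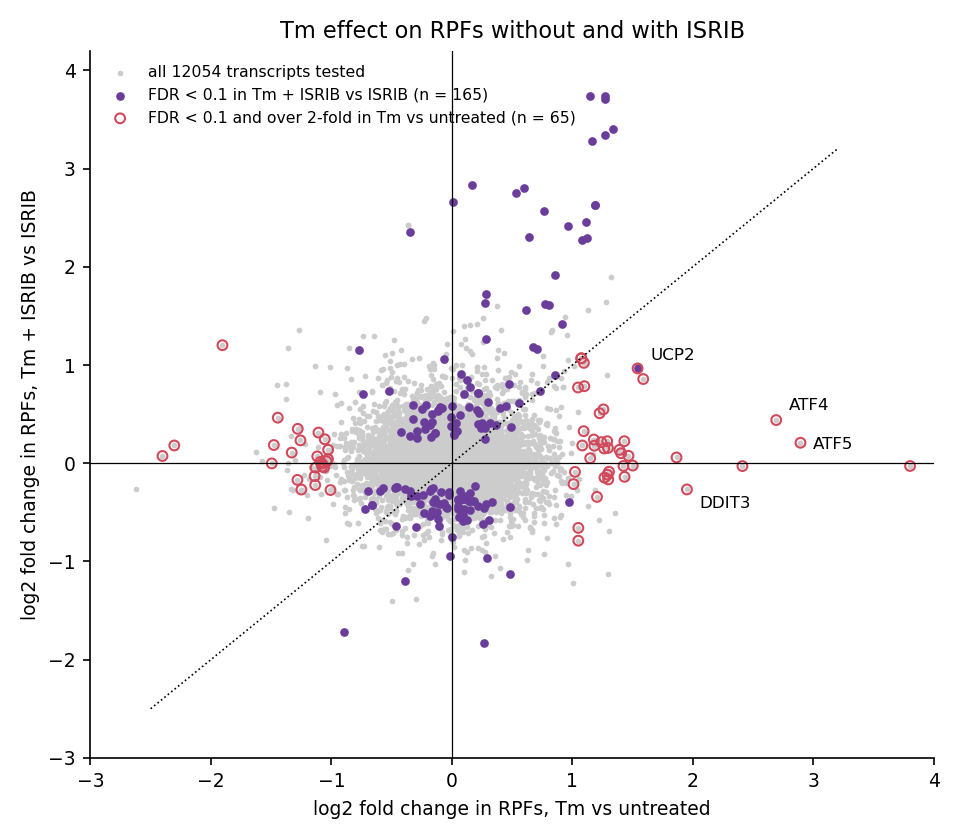
Log2-fold change in RPFs in Tm against untreated cells (x axis) and in Tm + ISRIB against ISRIB (y axis) for the 12054 transcripts tested, with calls of each contrast marked and the dotted line at equal values. The 65 transcripts changed more than 2-fold by Tm spread from -0.79 to 1.20 on the y axis, with medians of 0.14 (up) and 0.04 (down), and the 31 that rose more than 2-fold with ISRIB lie above the line.

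RPF changes in Tm + ISRIB followed the length of the coding sequence. The median log2-fold change was -0.09 over the 432 transcripts of up to 100 codons, -0.06 over 1479 of 101 to 200, -0.02 over 3290 of 201 to 400, 0.00 over 4245 of 401 to 800, 0.04 over 2018 of 801 to 1600 and 0.11 over 590 longer ones. Without 1 library at a time the shortest class ranged from -0.11 to -0.07 and the longest from 0.08 to 0.15. Of the longest class 30 rose and 1 fell, and of the shortest 0 rose and 11 fell, where 0.738% of all transcripts rose and 0.63% fell. In Tm without ISRIB the longest class had the same median, 0.11, but the shortest stood at 0.05.

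In the mRNA libraries the order was the opposite. The median mRNA change fell from 0.17 in the shortest class to -0.19 in the longest, and without mRNA-Seq ISRIB replicate a, which stands apart from replicate b, from 0.33 to -0.28. The part of library preparation in either trend was not tested.

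Coding sequences with a strongly hydrophobic stretch, as in transmembrane segments, had higher RPF changes with ISRIB. A stretch was scored as a window of 19 codons with a mean Kyte-Doolittle hydropathy of at least 1.6, over the 1850 named transcripts matched to GENCODE v29. The score does not separate proteins that enter the ER from others. The secreted FN1 and NID1 have 0 windows, and the mitochondrial chaperonin HSPD1 has 1. The median was 0.07 for the 582 with a window and -0.02 for the 1268 without, and their ranges on leaving out libraries were 0.05 to 0.09 and -0.03 to -0.02. Of those with a window 10 rose and 1 fell, and of those without 4 rose and 8 fell, where 1.17% of all named transcripts rose and 0.507% fell. The order held in every length class, at -0.01 against -0.07 up to 200 codons, 0.05 against -0.04 from 201 to 400, 0.06 against -0.01 from 401 to 800, 0.09 against 0.01 from 801 to 1600 and 0.15 against 0.05 above. In Tm alone the medians were -0.03 with and 0.01 without a window.

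**Figure D5:**
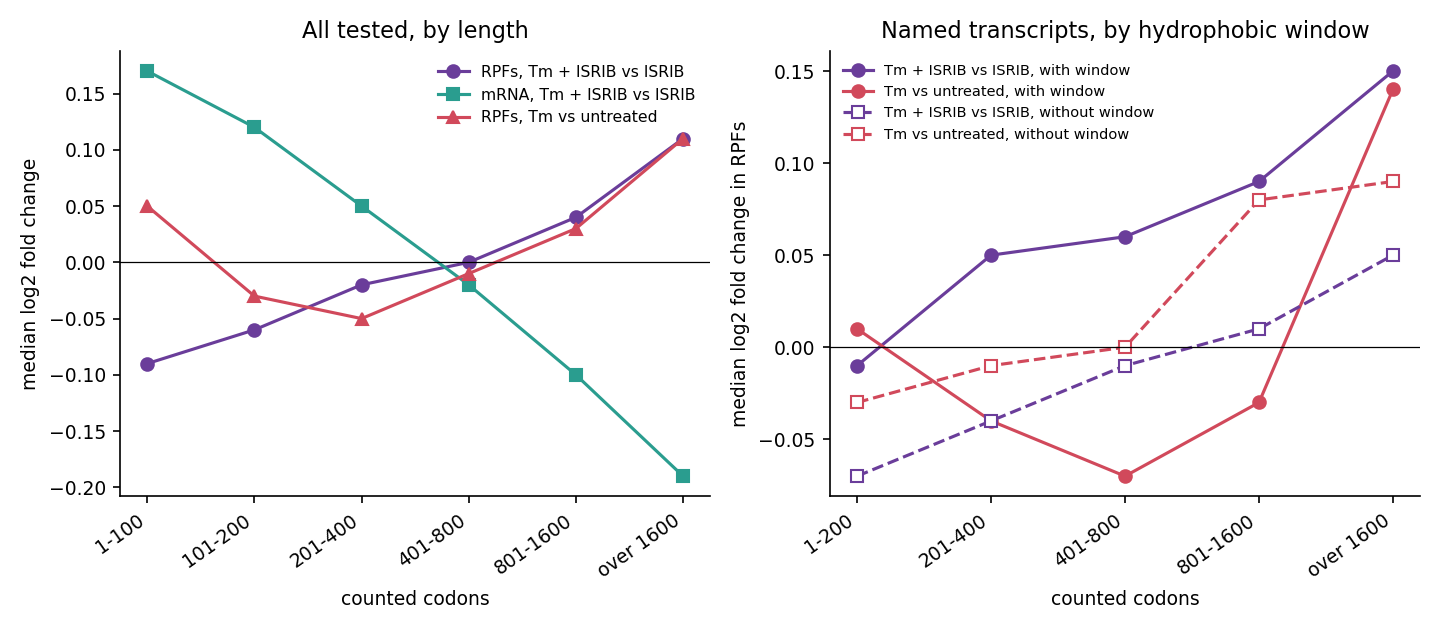
Median log2-fold change by counted codons. Left, all tested transcripts for RPFs with ISRIB, mRNA with ISRIB and RPFs without ISRIB; right, RPFs of named transcripts with (filled) and without (open) a hydrophobic window in both contrasts. RPF medians with ISRIB climb from -0.09 to 0.11 with length while those of mRNA go from 0.17 to -0.19, and the filled purple points lie above the open ones in all 5 length classes.

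Among transcripts with a window, the median by the number of N-X-S/T sequons, the sites of N-glycosylation, was 0.04 over 95 with none, 0.02 over 190 with 1 or 2, 0.07 over 151 with 3 to 5, 0.13 over 74 with 6 to 9 and 0.18 over 72 with 10 or more. Length grew with the number of sequons, from a median of 278 counted codons to 1803, so that the 2 cannot be told apart here. Transcripts without a window went from -0.06 over 258 with no sequon to 0.05 over 46 with 10 or more. By the number of upstream AUGs the medians were -0.00 over 951 transcripts with none and 0.01 over 310 with 3 or more. By GC content of the coding sequence, the median was 0.05 for the quintile of lowest GC (34% to 42.9%) and -0.05 for the highest (58.2% to 75.5%), but on leaving out libraries these ranged from 0.00 to 0.09 and from -0.09 to 0.01.

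mRNA changes were tested on the same treatments. Of the 10900 transcripts tested in mRNA-Seq, 0 changed at an FDR under 0.1 (0%), and 1681 had an unadjusted p under 0.05. DESeq2 called 85. The number of calls rose when mRNA-Seq ISRIB replicate a was left out, a fit that rests on replicate b alone for ISRIB. The squared difference between the 2 mRNA-Seq ISRIB replicates was 12.1 times that of counting noise. The same ratio was 5.5 for the mRNA-Seq Tm + ISRIB replicates and 1.61 for ISRIB in Ribo-Seq. At a given spread this ratio grows with depth.

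TE changed for 120 transcripts (1.1%), 66 up and 54 down. With library totals alone 74% of the calls were rises instead of 55%. The number of calls dropped when most single libraries of either assay were left out. It rose most without mRNA-Seq ISRIB replicate a, a fit that rests on replicate b alone for ISRIB. Of the 79 risers in RPFs that could be tested, 43 also rose in TE, and of 66 fallers 27 also fell (0.606% and 0.495% of all). TE contains the same RPF change, so this overlap is no separate support for the RPF calls. The risers had a median mRNA change of -0.22, with 14 of 79 above 0, and the fallers of 0.10, with 25 of 66 below 0. The risers had a median of 992 codons, and all transcripts of 801 to 1600 codons had a median mRNA change of -0.10. The fallers had a median of 216 codons, and all transcripts of 201 to 400 codons had a median mRNA change of 0.05. No mRNA change passed the test, and the part of length in these directions was not tested. Of the secreted and cell-surface list, 62 transcripts had a median mRNA change of -0.10 and a median TE change of 0.33, with 2 called up (0.804% of transcripts with a symbol were). They are LRP1B (log2 1.02, FDR 0.0715) and PTPRU (log2 0.61, FDR 0.0983). The list had a median length of 918 codons, and all transcripts of 801 to 1600 codons had medians of -0.10 for mRNA and 0.16 for TE. Histones had a median mRNA change of 0.32 and a median TE change of -0.47, with 7 of 12 called down (0.495% of all). Their median length was 111 codons, and all transcripts of 101 to 200 codons had medians of 0.12 for mRNA and -0.16 for TE. With replicate b as the only mRNA-Seq ISRIB library the mRNA and TE medians were 0.46 and -0.63 for the histones. For the secreted and cell-surface list they were -0.15 and 0.45. The medians with replicate a as the only one are not given here, so these larger values are no firmer than those of the full fit.

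At the edge of the count rule, 124 transcripts whose second highest count was 10 had a median log2-fold change of 0.12 and values from -1.38 to 1.49. The 118 whose second highest count was 9, just outside, had a median of -0.02 and values from -1.69 to 2.33 in the fit without a filter. The largest changes among transcripts without a symbol were those of uc002dev.4 (36 and 15 counts against 1 and 2) and uc009vjk.2 (59 and 26 against 5 and 5) upward, and uc002gor.1 (4 and 6 against 12 and 18) and uc003mtl.4 (7 and 6 against 14 and 22) downward.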

How the data were processed

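HEK293T cells were profiled by Ribo-Seq and mRNA-Seq, with 2 libraries for each of 4 treatments. The deposited files hold raw counts of reads per transcript, made by the authors and not normalized. The submitters' processing notes name CASAVA 1.8, Bowtie 1.0.0, TopHat2 2.0.7 and 2.0.10 and the hg19 build, without their roles. Cycloheximide (100 µg/ml) was added before lysis. The counted coding length is 19 sense codons shorter than that of GENCODE v29. Symbols came by identifier from the study's gene tables. Of 1974 named transcripts, 1850 (93.7%) were matched to GENCODE by symbol and coding length.

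Transcripts with a coding length and at least 10 counts in 2 or more of the 4 libraries compared were tested by edgeR 4.0.16 (R 4.3.3), with TMM factors, quasi-likelihood tests and Benjamini-Hochberg adjustment over all transcripts tested, at an FDR of 0.1. All 8 Ribo-Seq libraries shared 1 estimate of the spread. The difference of the Tm effects was tested as an interaction in the same fit, mRNA on the 8 mRNA-Seq libraries and TE in 1 model over both assays, as an interaction term. The RPF test and the TE test were tried on simulated counts with a fixed spread. The test of the difference and the mRNA test were not simulated. DESeq2 1.42.0 and other settings served as alternatives. PCR copies cannot be recognised in these counts.

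The transcripts and the 17 gene lists were chosen with earlier results of these data known, and 1 further list, of secreted and cell-surface proteins, after the values were seen. Named were the uORF mRNAs, the transcripts the study listed for Tm + ISRIB, up to 12 of the largest rises and falls among calls whose groups did not overlap, the 5 largest differences in each direction and, per list, the 2 smallest p-values. Others were named after their values were seen. Ribosomal protein genes are given as a group. Replicate letters did not pair the Ribo-Seq samples, with a correlation of their deviations of -0.02 between Tm + ISRIB and ISRIB.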

Additional observations from a re-analysis of the deposited data

Results flagged for a closer look

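The Tm effect on RPFs with ISRIB was tested against that without ISRIB in 1 interaction test, which 801 transcripts passed at an FDR under 0.1 (edgeR's quasi-likelihood test). The values below are this difference on the log2 scale, negative where the effect was lower with ISRIB.

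Among mRNAs of the ISR and its neighbours, the difference was -2.69 for ATF5, -2.25 for ATF4, -2.22 for DDIT3, -1.81 for PTP4A1, -1.57 for PPP1R15A, -1.53 for PNRC2, -1.45 for BCL2L11, -1.21 for IFRD1 and -0.94 for SAT1. It was -1.84 for ZNF432, -1.22 for CPS1, -1.09 for SLC25A44, -0.89 for IER5 and -2.10 for the transcript uc002gor.1, which has no symbol here. Among the mRNAs that fell in Tm + ISRIB it was -0.61 for GNG12, -0.61 for PRPF38A, -0.56 for FAM98A and -0.42 for HIST2H2BE.

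In the other direction, mRNAs of secreted, membrane and ER proteins had differences of 0.36 (EMC1), 0.62 (FN1), 0.64 (HSPG2), 0.66 (COL5A2), 0.67 (PGAP1), 0.74 (DDOST) and 0.92 (SLC39A10). MTHFD2 had 0.45 and SELENBP1 0.65. The difference was 1.11 for VANGL2, 1.14 for POMGNT1, 1.30 for KIAA1841, 1.42 for MAPK8IP1, 1.66 for PAQR5 and 2.67 for AK302511, the last on counts of 3 to 46 in the 4 libraries with ISRIB.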

How the results depend on the processing

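Against 165 RPF calls in Tm + ISRIB, the 4 libraries fitted alone gave 528, no count filter 347 and DESeq2 64. The calls over 2-fold, 35 in all, became 53 without a filter, 5 with at least 50 counts and 0 in DESeq2. Leaving out 1 library at a time gave 0 to 371 calls and 0 to 60 over 2-fold, the lone library of a group being assumed to vary like the other groups. For the difference of the Tm effects, DESeq2 gave 357 against 801 and single libraries left out 232 to 1229. For mRNA, DESeq2 gave 85 and libraries left out 0 to 3078. TE calls ranged from 0 to 1852. The replicate letter as a block gave 206 RPF calls, 861 differences, 0 mRNA calls and 118 TE calls; deviations of same-lettered Tm + ISRIB and ISRIB samples correlated at -0.02 for footprints and 0.38 for mRNA, and 2 letters do not show a pairing. Transcripts with equal counts in all 8 libraries, counted once, an alternative chosen after seeing the data, gave 163 RPF calls and 807 differences. Of 37 named calls, 37 remained with DESeq2's size factors, the block, no filter and the 4 libraries alone, 32 with library totals and 23 without Tm + ISRIB replicate b; DESeq2's test kept 7 of the 10 it gave an adjusted p, and 0 remained without Tm + ISRIB replicate a, ISRIB replicate a or ISRIB replicate b. None of the 37 changed sign. Of 41 named differences, 18 to 38 remained called when 1 library was left out; BCL2L11 went from -1.45 to -0.91 without ISRIB replicate a. Depth limits the transcripts with 1 to 4 ISRIB counts per library, whose ratios have wide counting intervals.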
